A study of Homo sapiens with 12 samples.

Results

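Hippo signalling genes were followed in MCF10A, a human breast epithelial cell line that does not form tumours. Induction of an active YAP and a vector for the transcription factor JUN were applied alone or together. The 10 genes were taken by name, as upstream members and feedback regulators of the pathway: the kinases LATS1, LATS2, STK3 and STK4, the scaffold SAV1, and the regulators NF2, AMOTL1, AMOTL2, FRMD6 and PTPN14. They are 10 of the 23459 gene IDs in the count table, and all 10 passed the filter on low counts. Every group carried a doxycycline-inducible YAP5SA allele, a YAP form with the serines that the Hippo kinases phosphorylate replaced. Cells were infected with a lentiviral JUN overexpression construct or with the empty vector, and received 100 ng/ml doxycycline (Dox) or its solvent ethanol (EtOH). The 4 groups, called vector EtOH, JUN EtOH, vector Dox and JUN Dox, held 3 libraries each. The labels do not say whether a line was 1 clone. No group received doxycycline without the inducible allele, so an effect of doxycycline itself and an effect of YAP5SA cannot be told apart, and a change between EtOH and Dox is called induction below.

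In the Hippo pathway the MST kinases, encoded by STK3 (MST2) and STK4 (MST1), work with the scaffold SAV1 to switch on the LATS kinases. LATS1 and LATS2 then phosphorylate YAP, which is held in the cytoplasm or degraded instead of binding TEAD transcription factors in the nucleus. NF2 (Merlin), the angiomotin-like proteins AMOTL1 and AMOTL2, FRMD6 (Willin) and the phosphatase PTPN14 act near cell junctions, where they help the kinases or bind YAP directly. Several of these genes, LATS2, NF2 and AMOTL2 among them, are known as genes that YAP and TEAD switch on, which makes a negative feedback loop. YAP5SA itself is not open to LATS phosphorylation.

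The manipulated genes were examined first. JUN had a mean of 47.6 CPM (counts scaled to library size) in vector EtOH and 1279 in JUN EtOH, against 189.7 in vector Dox and 1248 in JUN Dox. Induction in vector cells thus raised JUN as well, 3.98-fold (edgeR quasi-likelihood, adjusted p 3.09e-07). For the JUN vector the rise of JUN was 26.8-fold without induction and 6.58-fold with it. YAP1, whose counts add the endogenous transcript and whatever part of YAP5SA aligns there, was 0.40 higher on the log2 scale on induction in vector cells, which did not pass the test (edgeR quasi-likelihood, adjusted p 0.0819). Libraries held 18594867 to 28993487 counts. Of 9 mammary epithelial markers, KRT5 was at 2121 to 4697 CPM and CDH1 at 50.8 to 143 in every library, and their summed level was 9522 to 10231 CPM in vector EtOH and 8248 to 9972 in JUN EtOH, against 5109 to 6477 in vector Dox and 4962 to 7932 in JUN Dox. Whether fewer cells of a kind or less RNA per cell lies behind such a fall cannot be told apart in bulk samples. Markers of other cell types were near 0, with CD3E at 0 in all libraries and COL1A2, CDH5 and ALB at 0.124 CPM or less. DCN was at 2.93 to 22.4 CPM and CD14 at 1.45 to 30.9, and the summed blood markers were highest in vector EtOH (24.3 to 31.0 CPM) and lowest in JUN Dox (1.45 to 3.52). The part of these marker changes in the results below was not tested.

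Vector Dox replicate 1 stood apart for this gene set. It gave the lowest value of its group for 9 of 10 genes, with a mean deviation from the group of -0.26 on the log2 scale, while vector Dox replicate 2 gave the highest value for 9. In the same way vector EtOH replicate 2 was lowest for 8 of 10. Library deviations also followed transcript length: across genes, the correlation of a library's deviation from its group with log2 transcript length was -0.305 in vector Dox replicate 1, 0.272 in vector Dox replicate 2 and -0.189 in vector EtOH replicate 2. The longest annotated forms of the 10 genes run from 3094 bases (SAV1) to 13360 bases (PTPN14). How these lengths compare with those of all genes, and their part in the deviations, was not tested. Results that rest on these libraries are given with and without them.

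Among the kinases, LATS2 (Entrez gene 26524, GRCh37 chromosome 13, 21547175 to 21635725, minus strand) varied most. LATS2 was at 37.5, 29.5 and 31.5 CPM in vector EtOH and 58.3, 54.0 and 52.8 in JUN EtOH, against 65.6, 100.9 and 90.0 in vector Dox and 89.5, 89.3 and 84.1 in JUN Dox. The level climbed from vector EtOH to JUN EtOH to vector Dox with no overlap between neighbours, while both Dox groups overlapped. LATS1 (Entrez gene 9113, chromosome 6, 149979289 to 150039241, minus strand), its close relative with the same substrate, was at 42.8, 34.4 and 41.6 CPM in vector EtOH and 58.6, 50.9 and 52.1 in JUN EtOH, against 34.9, 53.1 and 50.9 in vector Dox and 65.6, 55.3 and 53.3 in JUN Dox. Every step in the order of its 4 groups by mean overlapped. Within EtOH and within Dox, all LATS1 values with the JUN vector were above those with the empty vector, in Dox by 53.3 against 53.1 CPM at the closest.

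The MST kinases also differed from each other. STK3 (Entrez gene 6788) was at 21.1, 22.2 and 21.1 CPM in vector EtOH and 22.9, 24.5 and 22.1 in JUN EtOH, against 34.9, 35.9 and 33.1 in vector Dox and 35.6, 40.1 and 35.3 in JUN Dox. All 6 Dox libraries lay above all 6 EtOH libraries. STK4 (Entrez gene 6789, chromosome 20, 43595135 to 43708662, plus strand) sorted by the vector instead: 55.6, 44.1 and 52.8 CPM in vector EtOH and 46.4, 56.7 and 56.6 in vector Dox, against 72.2, 61.1 and 66.3 in JUN EtOH, with JUN Dox at 79.5, 65.7 and 64.2. All JUN libraries were above all vector libraries. SAV1 (Entrez gene 60485, chromosome 14, 51098776 to 51135024, minus strand), which couples MST to LATS, was at 50.2, 45.2 and 51.8 CPM in vector EtOH and 50.7, 51.7 and 50.5 in JUN EtOH, against 69.5, 83.8 and 91.3 in vector Dox and 60.7, 62.1 and 64.7 in JUN Dox. Both EtOH groups overlapped, and JUN Dox lay between them and vector Dox. ATL1 overlaps SAV1 on the other strand and had a mean of 132 counts against 1414 for SAV1, and the use of strand in counting is not given in the sources used here, so SAV1 may hold some reads of ATL1.

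Of the junctional regulators, AMOTL2 (Entrez gene 51421, chromosome 3, 134074189 to 134094321, minus strand) had the highest level per kilobase of exon, 100.2 ± 15.1 CPM in vector Dox (SD, n = 3). AMOTL2 was at 126.4, 97.2 and 115.9 CPM in vector EtOH and 118.5, 108.7 and 112.2 in JUN EtOH, against 548.0, 743.7 and 656.8 in vector Dox and 430.3, 488.4 and 545.2 in JUN Dox. No JUN Dox library reached the lowest vector Dox library. NF2 (Entrez gene 4771, chromosome 22, 29999545 to 30094587, plus strand), a membrane-linked protein that recruits LATS, had a like order: 127.3, 131.4 and 130.4 CPM in vector EtOH, 133.8, 131.7 and 131.0 in JUN EtOH, 275.8, 371.6 and 337.1 in vector Dox, and 212.8, 248.2 and 255.4 in JUN Dox. Its 6 EtOH libraries lay within 127.3 to 133.8 CPM, and JUN Dox lay between them and vector Dox.

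FRMD6 (Entrez gene 122786, chromosome 14, 51955818 to 52197445, plus strand), a FERM-domain protein related to NF2, was at 44.3, 36.6 and 40.7 CPM in vector EtOH, 90.3, 79.1 and 82.2 in JUN EtOH, 138.3, 165.5 and 151.7 in vector Dox, and 255.3, 209.9 and 208.1 in JUN Dox. Its 4 groups did not overlap at any step. AMOTL1 (Entrez gene 154810, chromosome 11, 94439597 to 94609913, plus strand), the relative of AMOTL2, was at 139.4, 100.2 and 126.6 CPM in vector EtOH and 77.7, 139.9 and 113.8 in vector Dox, against 209.5, 173.7 and 218.3 in JUN EtOH, with JUN Dox at 229.3, 261.8 and 271.4. As for STK4, all JUN libraries were above all vector libraries. PTPN14 (Entrez gene 5784, chromosome 1, 214522043 to 214725792, minus strand), a phosphatase that binds YAP, was at 228.6, 210.2 and 225.1 CPM in vector EtOH and 307.2, 287.4 and 277.3 in JUN EtOH, against 195.2, 297.2 and 278.7 in vector Dox and 311.1, 323.5 and 315.0 in JUN Dox. Its vector Dox libraries overlapped both vector EtOH and JUN EtOH.

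**Figure D1:**
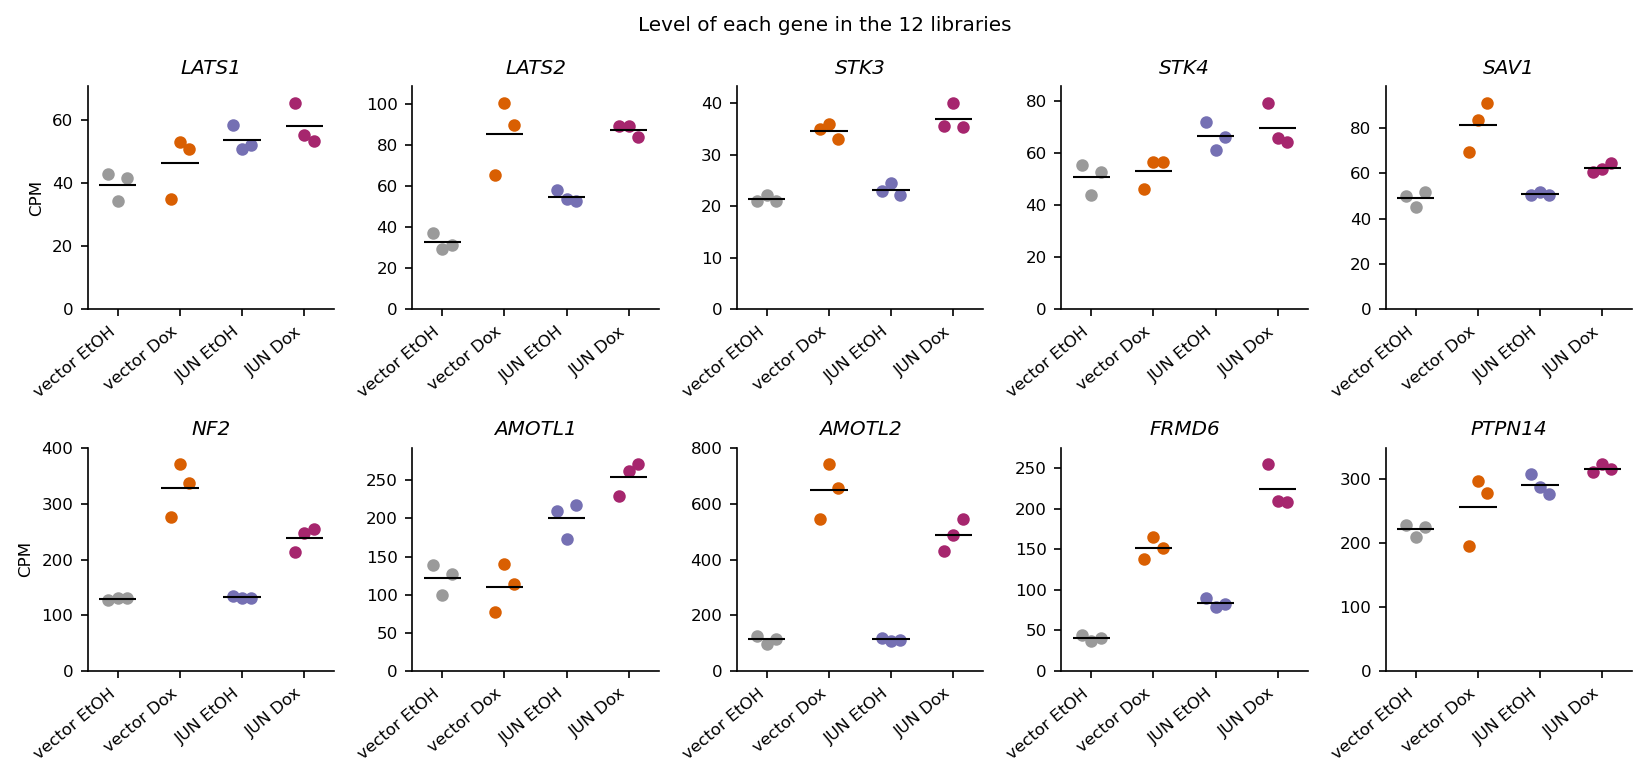
CPM (y axis, from 0, a scale of its own per gene) of each of the 10 genes in the 3 libraries of each group, with a black line at the group mean. Every Dox library lies above every EtOH library for AMOTL2, NF2, STK3, SAV1, LATS2 and FRMD6. Every JUN library lies above every vector library for STK4 and AMOTL1. Within EtOH and within Dox, JUN libraries also lie above vector libraries for FRMD6, LATS1 and PTPN14. For LATS2 they do so within EtOH only. Within Dox, JUN libraries lie below vector libraries for AMOTL2, NF2 and SAV1. The share of all genes with such separation was not counted. The mean of FRMD6 goes from 40.5 CPM in vector EtOH to 224.5 in JUN Dox.

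RefSeq promoter windows (300 bases around a start, GRCh38.p14) were searched on both strands for the letters GGAATG, which TEAD factors are known to bind, and TGANTCA, a looser form of the AP-1 site, which JUN dimers are known to bind and which has C or G at its centre. The search covered windows of 9 of the 10 genes, 12 windows in all. STK3 was left out of it, so the counts of windows below say nothing of STK3. GGAATG, or its reverse complement, was in 3 of these 12 windows, against 14.0% of all 35116 windows of the same length, and TGANTCA in 1 of 12, against 7.7%. The TGANTCA match, in a LATS1 window 245 bases before the start, lacks the C or G at its centre and so is not the AP-1 consensus. The 3 windows with GGAATG are shown as the ones that hold the TEAD letters, in capitals on either strand, and belong to AMOTL2 and LATS2, called for induction in both vector and JUN cells, and to PTPN14, called in neither. The AMOTL2 window is chr3:134374398-134374697 (minus strand, match 69 bases before the start), that of LATS2 is chr13:21061537-21061836 (minus strand, match from base 10 after the start) and that of PTPN14 is chr1:214551553-214551852 (minus strand, match 200 bases before the start).
AMOTL2: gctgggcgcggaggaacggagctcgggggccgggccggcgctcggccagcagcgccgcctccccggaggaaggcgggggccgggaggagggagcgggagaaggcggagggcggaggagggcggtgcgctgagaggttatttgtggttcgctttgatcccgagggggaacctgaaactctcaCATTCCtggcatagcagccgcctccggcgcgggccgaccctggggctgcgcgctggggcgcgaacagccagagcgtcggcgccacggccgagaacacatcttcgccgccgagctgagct
LATS2: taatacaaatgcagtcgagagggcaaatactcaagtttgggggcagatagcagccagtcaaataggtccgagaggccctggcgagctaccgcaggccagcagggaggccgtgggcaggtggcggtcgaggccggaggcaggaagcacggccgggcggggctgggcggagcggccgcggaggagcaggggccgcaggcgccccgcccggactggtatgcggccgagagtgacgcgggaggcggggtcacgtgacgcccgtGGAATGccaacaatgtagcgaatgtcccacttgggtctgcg
PTPN14: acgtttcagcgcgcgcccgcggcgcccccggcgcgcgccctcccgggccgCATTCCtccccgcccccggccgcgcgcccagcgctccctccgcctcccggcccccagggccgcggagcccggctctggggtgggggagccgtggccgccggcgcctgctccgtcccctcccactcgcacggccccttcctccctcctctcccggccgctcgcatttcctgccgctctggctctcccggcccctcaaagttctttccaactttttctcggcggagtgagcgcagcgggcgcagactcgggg
A second window of AMOTL2 and one of LATS1 held neither set of letters, nor did the windows of NF2, FRMD6, SAV1, STK4 and AMOTL1. Matches in a promoter window are a description of the letters there and say nothing of binding in these cells, and sites farther from a start were not searched.

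YAP5SA induction in vector cells raised 6 of the 10 genes and lowered 0. AMOTL2 rose 5.74-fold (2.52 on the log2 scale, SE 0.14, edgeR adjusted p 7.97e-09), and FRMD6 rose 3.74-fold (1.90, SE 0.12, edgeR adjusted p 1.87e-08). LATS2 rose 2.60-fold (1.38, SE 0.14, edgeR adjusted p 3.35e-06) and NF2 2.53-fold (1.34, SE 0.11, edgeR adjusted p 5.8e-07), while the smaller rises were 1.66-fold for SAV1 (0.73, SE 0.10, edgeR adjusted p 8.65e-05) and 1.62-fold for STK3 (0.69, SE 0.09, edgeR adjusted p 5.57e-05). Each of the 6 was higher in 3 of 3 Dox libraries than in any EtOH library. Such separation was not counted over all genes, so its background share is not known. LATS1, STK4, AMOTL1 and PTPN14 did not pass the test, with log2 fold changes of 0.23, 0.07, -0.14 and 0.22. Among all 14775 genes tested, 30.1% were called in this comparison, 15.6% higher and 14.4% lower, and the median log2 fold change was 0.71 over the 10 genes and 0.01 over all genes. The 6 calls were kept in every other setting tried. Without vector Dox replicate 1, LATS1 (0.39, edgeR adjusted p 0.0233) and PTPN14 (0.37, edgeR adjusted p 0.00727) were called higher too. AMOTL2 and LATS2 are on the study's list of top YAP-induced genes, which was drawn from a separate experiment, and the other 8 are not. That list used a limit on the fold change and a stricter adjusted p than the 0.05 used here, so it and these calls are not at the same threshold.

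Induction in JUN cells, which shares no library with the previous comparison, raised 5 genes and lowered 0. AMOTL2 rose 4.31-fold (2.11, SE 0.14, edgeR adjusted p 1.26e-07), FRMD6 2.68-fold (1.42, SE 0.11, edgeR adjusted p 6.87e-07), NF2 1.81-fold (0.85, SE 0.11, edgeR adjusted p 7.99e-05), STK3 1.60-fold (0.68, SE 0.09, edgeR adjusted p 0.000122) and LATS2 1.59-fold (0.67, SE 0.14, edgeR adjusted p 0.00267). Like AMOTL1 and PTPN14, SAV1 was higher in 3 of 3 Dox libraries than in any EtOH library without being called. Its log2 fold change was 0.29, short of the threshold (edgeR adjusted p 0.0557). It passed in the fit to the libraries of this comparison alone (0.0246), with a GC term (0.0407) and without vector Dox replicate 1 (0.0149). LATS1, STK4 and PTPN14 had log2 fold changes of 0.11, 0.07 and 0.12, and AMOTL1 one of 0.34 (edgeR adjusted p 0.196), none called. In this comparison 21.4% of all genes were called, 11.2% higher and 10.3% lower, and the median was 0.51 over the 10 genes and 0.00 over all genes.

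The JUN vector without induction raised 6 genes: FRMD6, LATS2, AMOTL1, LATS1, STK4 and PTPN14, with 0 of 10 lower. FRMD6 was 2.07-fold higher (1.05, SE 0.11, edgeR adjusted p 6.54e-06), LATS2 1.67-fold (0.74, SE 0.14, edgeR adjusted p 0.000791) and AMOTL1 1.64-fold (0.71, SE 0.18, edgeR adjusted p 0.00587). LATS1, STK4 and PTPN14 were 1.36, 1.31 and 1.31 times as high (0.45, 0.39 and 0.39 on the log2 scale, edgeR adjusted p 0.027, 0.0212 and 0.0271). Without vector EtOH replicate 2, or without JUN EtOH replicate 1, these last 3 were no longer called, which left 3 of 10. Over all genes, 5766 calls became 4188 and 3823 in those fits. PTPN14 was also not called without vector EtOH replicate 1 (edgeR adjusted p 0.0513), vector EtOH replicate 3 (0.0616) or JUN EtOH replicate 2 (0.062). STK3, SAV1, NF2 and AMOTL2 had log2 fold changes of 0.11, 0.06, 0.03 and -0.001, and for NF2 and AMOTL2 the 95% intervals were -0.21 to 0.27 and -0.29 to 0.29. All genes together gave 39% called, 20.1% higher and 18.9% lower. The median was 0.39 over the 10 genes and 0.00 over all genes, and across genes the log2 fold change had a correlation of 0.136 with log2 transcript length. The part of length in these values was not tested beyond the terms given for each library's own trend.

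With induction, the JUN vector went with higher levels of 3 genes and lower levels of 3. AMOTL1 was 2.3-fold higher (1.20, SE 0.18, edgeR adjusted p 0.000128), FRMD6 1.48-fold (0.56, SE 0.11, edgeR adjusted p 0.00125) and STK4 1.31-fold (0.39, SE 0.12, edgeR adjusted p 0.0226). NF2 fell to 0.728 of its vector Dox level (-0.46, SE 0.11, edgeR adjusted p 0.00544), AMOTL2 to 0.751 (-0.41, SE 0.13, edgeR adjusted p 0.0265) and SAV1 to 0.766 (-0.38, SE 0.10, edgeR adjusted p 0.00955). LATS2, STK3, LATS1 and PTPN14 were not called, with log2 fold changes of 0.04, 0.09, 0.32 and 0.30. Calls for AMOTL1, FRMD6 and NF2 were kept in every setting. In the fit to these 6 libraries alone, STK4, SAV1 and AMOTL2 were not called (edgeR adjusted p 0.0568, 0.0563 and 0.0866), and each also lost its call without 1 library or another: STK4 without vector Dox replicate 1 (0.0675) or JUN Dox replicate 1 (0.0905), SAV1 without vector Dox replicate 3 (0.0562), and AMOTL2 in 4 such fits (0.111 without vector Dox replicate 2, 0.0634 without vector Dox replicate 3, 0.0957 without JUN Dox replicate 1 and 0.0691 without JUN Dox replicate 2). LATS1 (0.04) and PTPN14 (0.0245) were called higher without vector Dox replicate 2. The fit to these 6 libraries alone gave 3439 calls over all genes, against 5267 in the main fit. Of all genes 35.6% were called, 18.4% higher and 17.2% lower, and the medians were 0.20 over the 10 genes and 0.00 over all genes.

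Against vector EtOH, cells with both the JUN vector and induction had higher levels of all 10 genes. The rise ran from 5.53-fold for FRMD6 (2.47, SE 0.12, edgeR adjusted p 8.75e-10) and 4.31-fold for AMOTL2 (2.11, SE 0.14, edgeR adjusted p 2.27e-08) to 1.27-fold for SAV1 (0.35, SE 0.10, edgeR adjusted p 0.0157). LATS2 was 2.67-fold higher, AMOTL1 2.08-fold, NF2 1.84-fold, STK3 1.73-fold, LATS1 1.47-fold, PTPN14 1.43-fold and STK4 1.37-fold, with edgeR adjusted p from 1.46e-06 to 0.00855. This comparison shares JUN Dox or vector EtOH libraries with each of the 4 above. Its background was 38.2% of all genes called, 20.6% higher and 17.6% lower, with medians of 0.83 over the 10 genes and 0.02 over all genes. Without vector EtOH replicate 2, STK4 (edgeR adjusted p 0.0501) and SAV1 (0.0767) were not called, and STK4 was not called without JUN Dox replicate 1 (0.0509).

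The last comparison asked whether induction differed between cells with the JUN vector and cells with the empty vector, as the log2 induction of the former less that of the latter. None of the 10 differences passed the edgeR test after adjustment over all genes (0 called), where the background was 1.12% of all genes called, 0.291% higher and 0.826% lower. At an unadjusted p under 0.05 there were 5 of 10, against 1330 of 14775 genes (9.0%). The 5 were LATS2 at -0.71 (95% interval -1.12 to -0.30, edgeR adjusted p 0.117), NF2 at -0.49 (-0.82 to -0.15, 0.218), FRMD6 at -0.48 (-0.82 to -0.15, 0.221), SAV1 at -0.44 (-0.75 to -0.13, 0.233) and AMOTL2 at -0.41 (-0.81 to -0.01, 0.536). For LATS2, induction alone gave 2.60-fold, the JUN vector alone 1.67-fold, and both together 2.67-fold. STK3, at -0.02, had an interval of -0.30 to 0.26, AMOTL1 was the gene with the highest value, 0.49 (-0.05 to 1.02), and 8 of 10 values were below 0. The median was -0.27 over the 10 genes and 0.01 over all genes. Without vector Dox replicate 1, LATS2 (-0.86, edgeR adjusted p 0.0041), NF2 (-0.59, 0.0313) and SAV1 (-0.54, 0.0358) were called. Over all genes that fit gave 242 calls, against 165 in the main fit. Of the 10 genes DESeq2 called LATS2 alone (adjusted p 0.0363), beside 340 calls over all genes. With a term for each library's length trend, a setting added after the data were seen, LATS2 (-0.66, edgeR adjusted p 0.00208) and FRMD6 (-0.47, 0.0251) were called. That term was computed from the deviations of these same libraries, so it takes up part of their spread. With it, 361 of all genes were called.

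**Figure D2:**
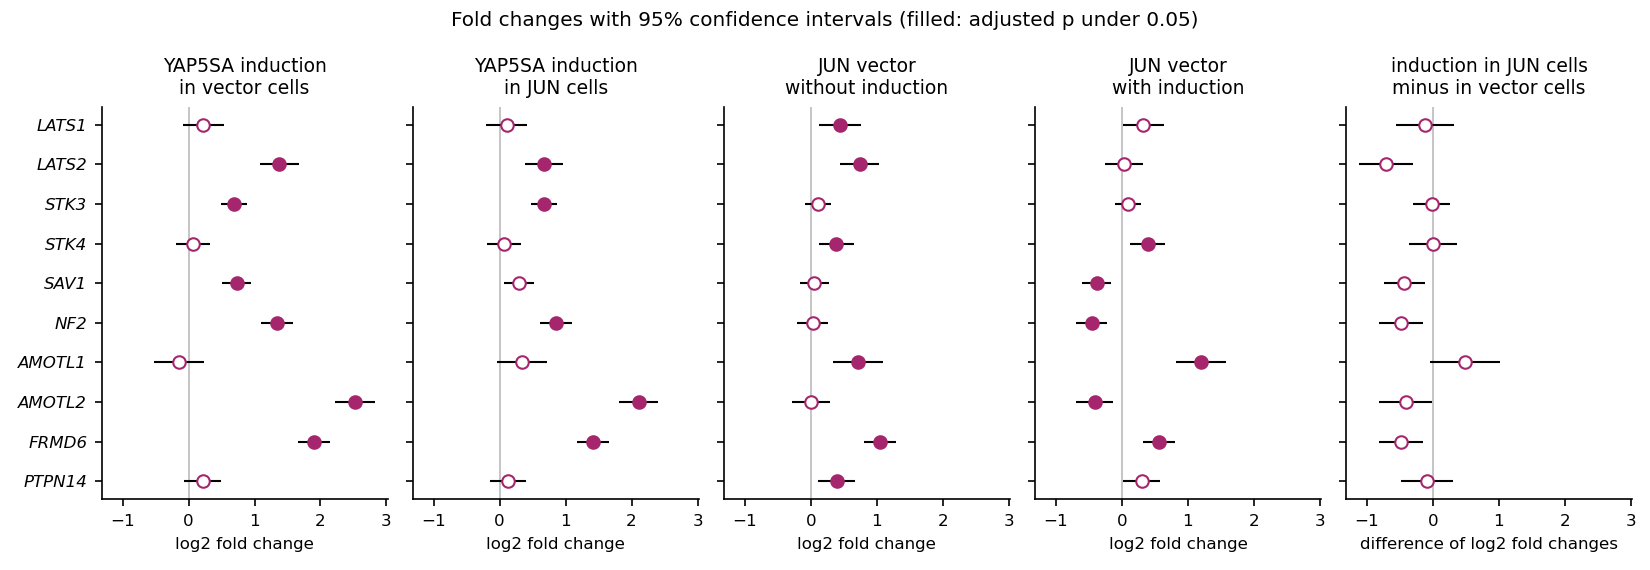
Log2 fold change (x axis) of each gene in 4 pairwise comparisons and, in the last panel, the difference between both inductions, with bars for 95% confidence intervals and filled points for genes called by edgeR. AMOTL2 is farthest right in both induction panels, at 2.52 and 2.11, SAV1, NF2 and AMOTL2 are below 0 for the JUN vector with induction, and the last panel holds no filled point.

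Within each pair of relatives, one gene (LATS2, STK3, AMOTL2) was called for induction in both vector and JUN cells and the other (LATS1, STK4, AMOTL1) in neither, and their proportions were compared per length of exon. Per kilobase, the level in vector EtOH ran from 1.70 ± 0.05 CPM for STK3 to 17.5 ± 0.29 for NF2 and 17.5 ± 2.28 for AMOTL2 (SD, n = 3). The log2 ratio of LATS2 to LATS1 per kilobase was 0.33 ± 0.11 in vector EtOH, 0.63 ± 0.05 in JUN EtOH, 1.20 ± 0.13 in JUN Dox and 1.48 ± 0.06 in vector Dox (SD, n = 3). These groups did not overlap, with the highest vector EtOH library at 0.41 and the lowest JUN EtOH library at 0.59. The ratio of AMOTL2 to AMOTL1 moved further, from -0.19 ± 0.14 in JUN EtOH and 0.53 ± 0.05 in vector EtOH to 1.57 ± 0.06 in JUN Dox and 3.22 ± 0.21 in vector Dox (SD, n = 3), also without overlap. In vector Dox, AMOTL2 was thus 9.29 times as high as AMOTL1 per kilobase, and in JUN EtOH 0.877 times. In STK4 to STK3 the gene called for induction is the divisor, so the ratio fell. It went from 0.84 ± 0.22 in vector EtOH to 0.22 ± 0.18 in vector Dox and from 1.12 ± 0.18 in JUN EtOH to 0.52 ± 0.23 in JUN Dox (SD, n = 3). Here groups did overlap, with vector EtOH at 0.597 to 1.004 and JUN Dox at 0.318 to 0.766. A ratio within a library does not depend on how libraries are scaled, but its absolute value depends on the length used, and with the longest transcript in place of merged exons AMOTL2 to AMOTL1 in JUN EtOH was 0.06.

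**Figure D3:**
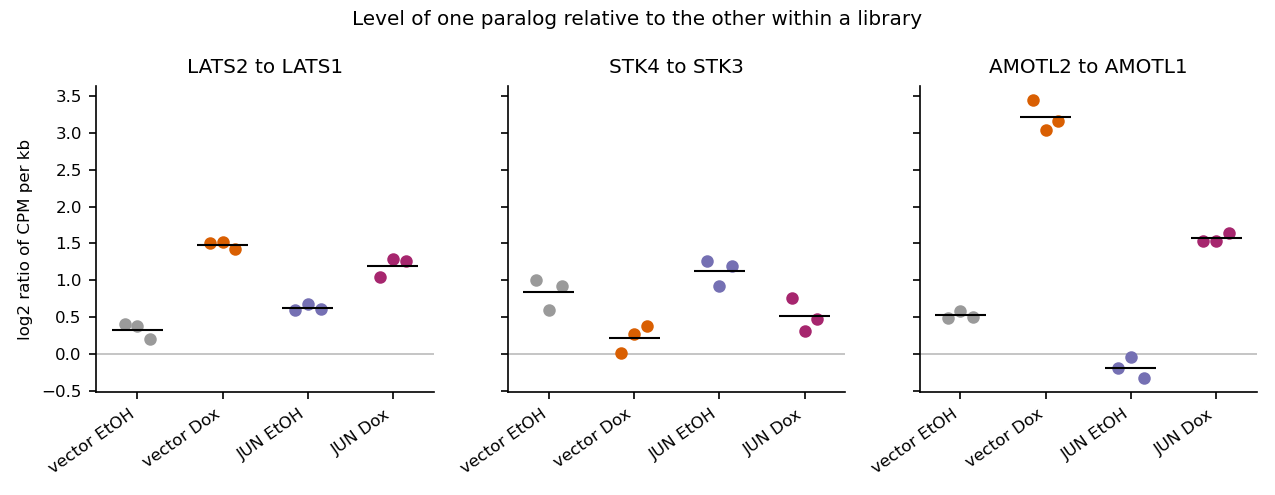
Log2 ratio of CPM per kilobase (y axis) of LATS2 to LATS1, STK4 to STK3 and AMOTL2 to AMOTL1 in the 3 libraries of each group, with a black line at the mean. Both Dox groups lie above both EtOH groups for LATS2 to LATS1 and for AMOTL2 to AMOTL1, which reaches 3.22 in vector Dox.

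A further 51 Hippo genes were listed by role to set the 10 genes in their pathway, and 48 of them were tested. Genes under a mean of 5 CPM are counted but not named. Induction in vector cells raised 13 and lowered 9 of the 48, beside 15.6% and 14.4% of all genes, and the 22 calls became 14 without vector EtOH replicate 1. Calls over all genes went from 4443 to 3540 in that fit. The 3 LIM proteins that hold LATS at junctions all rose, with WTIP at 1.54 (SE 0.12, edgeR adjusted p 2.47e-07) followed by AJUBA at 1.51 (SE 0.10, edgeR adjusted p 4.9e-08), and so did FAT4, an atypical protocadherin, at 1.49 (SE 0.24, edgeR adjusted p 0.000284). In the protocadherin group 2 of 5 rose. Of 6 MAP4K kinases, which can activate LATS beside the MST kinases, 4 fell and 1 rose, with TNIK at -1.34 (SE 0.17, edgeR adjusted p 3.04e-05). DLG5, a junctional scaffold, was at -1.17 (SE 0.14, edgeR adjusted p 2.3e-05) and STRIP2, of the STRIPAK phosphatase complex that opposes MST, at -0.66 (SE 0.21, edgeR adjusted p 0.0252). In JUN cells induction raised 7 and lowered 5, beside 11.2% and 10.3% of all genes, led among genes of at least 5 CPM by FAT4 at 1.52, AJUBA at 1.32 and FJX1, a relative of the four-jointed kinase, at 1.29, and by TNIK at -0.99, DLG5 at -0.68 and MAP4K4 at -0.56, with edgeR adjusted p from 4.18e-07 to 0.00325. Beside the 10 genes, whose median log2 induction was 0.71 and 0.51, the median of these 48 was 0.11 and 0.03.

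For the JUN vector more genes of the list were called higher than lower, with 22 of 48 higher and 4 lower without induction, beside 20.1% and 18.9% of all genes. With induction 18 were higher and 3 lower, beside 18.4% and 17.2%. Without vector EtOH replicate 2 or JUN EtOH replicate 1, the 26 calls became 17, and without vector Dox replicate 3, or in the fit to their own libraries, the 21 calls with induction became 13. Over all genes, the 5766 calls became 4188 and 3823, and the 5267 with induction became 4337 and 3439. Among called genes of at least 5 CPM, RASSF6, an adaptor of the MST kinases with a mean of only 5.6 CPM, was highest in both, at 1.45 (SE 0.21, edgeR adjusted p 0.000104) without induction, then 1.73 (SE 0.22, edgeR adjusted p 2.87e-05) with it, followed by STRIP2 (1.04 and 1.57) and FAT4 (0.97 and 1.00). WTIP (-0.52 and -0.95) and FJX1 (-0.61 and -0.69) were lower in both, with edgeR adjusted p of 0.00487 and 2.36e-05 for WTIP. DLG5 was at -0.60 without induction and RASSF5 at -0.61 with it, and RASSF5 overlaps the more abundant EIF2D on the other strand, so its value is uncertain. The STRIPAK genes had 5 of 13 higher and 0 lower without induction, and the MST adaptors and activators 6 of 10 higher and 1 lower, beside the same 20.1% and 18.9% of all genes. With both manipulations against neither, 23 were higher and 3 lower, beside 20.6% and 17.6% of all genes, and the 26 calls became 17 without vector EtOH replicate 2 or JUN Dox replicate 1. Calls over all genes went from 5638 to 4134 and 4418 in those fits. At 5 CPM or more the called genes of the list included FAT4 (2.50), WWC1, the NF2 partner KIBRA (1.36), and AJUBA (1.35), and on the lower side DLG5 (-1.29), TNIK (-0.80) and TAOK3 (-0.45, at a mean of 1220 CPM). None of the 48 was called by edgeR for the difference between inductions, with 5 of 48 at an unadjusted p under 0.05, a share of 10.42% beside the 9.0% of all genes. Without vector Dox replicate 1, 2 of the 48 were called, beside 242 of all genes, against 165 of all genes in the main fit. The 2 NDR kinases of the list, relatives of LATS, were called in none of the 6 comparisons. List medians were 0.30 and 0.23 for the JUN vector without and with induction.

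**Figure D4:**
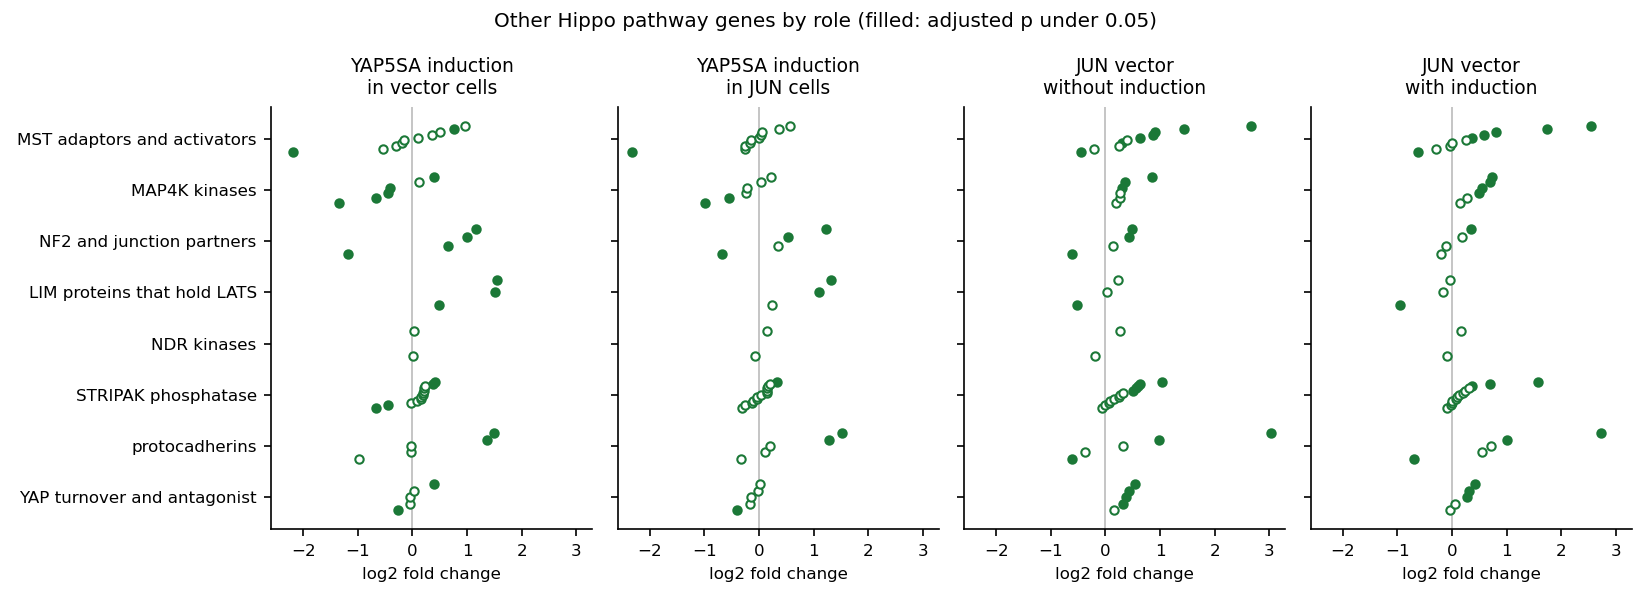
Log2 fold change (x axis) of the 48 tested genes of the pathway list, in rows by role, in 4 comparisons, with filled points for genes called by edgeR. In both induction panels the LIM proteins lie above 0 and TNIK is the lowest MAP4K gene, and most filled points lie above 0 in both JUN panels.

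The genes whose pattern was most like that of 3 of the 10 were sought among 11403 genes whose mean level was 5 CPM or more, by Pearson correlation of log2 CPM over the 12 libraries. AMOTL2 was closest to AJUBA (r = 0.995), CCN1 (r = 0.993) and CDR2 (r = 0.992). LATS2 was closest to CBR4, PALLD and GPR176 (r = 0.986 each), and PTPN14 to GNG12 (r = 0.967), PPP2R3A (r = 0.966) and RAB5A (r = 0.960). The libraries fall into 4 groups and share those groups' differences, so these values describe likeness only.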

How the data were processed

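RNA of MCF10A cells was sequenced. The labels name total RNA and the NEBNext Ultra II RNA kit, while the study's methods describe poly(A) mRNA isolation and the NEBNext Ultra kit. For 12 libraries the authors deposited raw counts per Entrez gene, not normalized. The submitters' processing notes name Cutadapt 4.2, Bowtie2 2.3.5.1 and hg19, and the study's methods name countOverlaps of GenomicRanges. Bowtie2 does not split reads across introns, so reads over exon junctions are largely lost in all libraries alike. Gene annotation and use of strand in counting are not given in the sources used here.

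Groups came from the sample titles. The 10 genes, the pathway list and the tests were chosen with earlier results of these data known. Genes were filtered with filterByExpr (minimum count 10, minimum total 15), which left 14775 genes, and 1 edgeR 4.0.16 quasi-likelihood model with TMM scaling was fitted to all 12 libraries under R 4.3.3 (biological coefficient of variation 12.5%). Calls are at an adjusted p under 0.05 (Benjamini-Hochberg over the 14775 genes). The SE was obtained from the log2 fold change and its F statistic. The study's methods describe biological replicates, but the labels do not say which libraries came from separate cultures, so p-values measure the spread between these libraries. The fitting steps were tested on simulated counts. Alternatives were DESeq2 1.42.0, RLE or upper-quartile scaling, no filter, a minimum mean of 5 CPM, a fit to the compared libraries alone, a block for replicate number, a term for GC deviation and each library left out. A term for length deviation was added after seeing the data.

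Named genes were the 10 genes, JUN and YAP1, in each comparison the 3 highest and the 3 lowest log2 fold changes among called pathway genes of 5 CPM or more, and the 3 genes most alike to AMOTL2, LATS2 and PTPN14. Positions are GENCODE v44lift37 on GRCh37, and 99.4% of IDs had a symbol in the RefSeq gene table. Promoter windows are from RefSeq on GRCh38.p14. No protein sequences were used here. GC content and transcript length were known for 97.4% of tested genes.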

Additional observations from a re-analysis of the deposited data

How the results depend on the processing

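Settings were compared for the 6 comparisons. Of the calls, 6 of 6 held in all settings for induction in vector cells, 5 of 5 for induction in JUN cells, 3 of 6 for the JUN vector without induction, 3 of 6 with it, and 8 of 10 for both manipulations against neither. Leaving out 1 library, the number of the 10 genes called was 6 to 8, 5 to 6, 3 to 6, 4 to 7 and 8 to 10 in that order, and 0 to 3 for the difference between inductions. Calls over all genes moved too, in the same order 3326 to 4865, 2082 to 3861, 3823 to 6765, 4025 to 5539 and 4134 to 6622, and 97 to 242 for the difference. For the JUN vector without induction, 5766 became 4188 without vector EtOH replicate 2 and 3823 without JUN EtOH replicate 1. In the other settings the JUN vector with induction gave 3 when only its own libraries were fitted, and the difference between inductions gave 1 by DESeq2 and 2 with a length term. Over all genes, the fit to its own libraries gave 3439 calls for the JUN vector with induction, against 5267 in the main fit. For the difference, 165 calls over all genes became 340 by DESeq2 and 361 with a length term. That term gave 7, 7, 6, 8 and 10 calls in the pairwise comparisons. Over all genes it gave 5730, 4404, 7246, 7139 and 7221, against 4443, 3168, 5766, 5267 and 5638 in the main fit. On the pathway list, leaving out 1 library gave 14 to 25, 10 to 13, 17 to 27, 13 to 23, 17 to 34 and 0 to 2 calls, the fit to its own libraries gave 13 for the JUN vector with induction, and the length term gave 2 for the difference between inductions. Where fewer libraries were fitted, that is the construction of the setting, and otherwise the cause was not tested.

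With the longest transcript in place of merged exons, the log2 ratio of LATS2 to LATS1 was 0.139, 0.44, 1.295 and 1.008 in vector EtOH, JUN EtOH, vector Dox and JUN Dox, that of STK4 to STK3 was 0.923 in JUN EtOH and 0.018 in vector Dox, and that of AMOTL2 to AMOTL1 was 0.779, 0.064, 3.469 and 1.822 in the order of the first pair, by construction a constant shift for each pair.

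Values that changed sign were those near 0 that no fit called. AMOTL2 for the JUN vector without induction was 0.00 with RLE scaling or a GC term, 0.002 without a filter, 0.022 above 5 CPM, 0.004 in its own libraries and 0.009 with a length term, and ran from -0.099 to 0.085 leaving out 1 library. For the difference between inductions, STK4 was -0.003 with DESeq2 or RLE scaling and STK3 was 0.003 with upper-quartile scaling, and leaving out 1 library gave -0.084 to 0.101 for STK4, -0.081 to 0.025 for STK3 and -0.251 to 0.03 for PTPN14. The same range was -0.035 to 0.149 and -0.037 to 0.132 for STK4 in vector and JUN cells, -0.358 to 0.047 for AMOTL1 in vector cells, 0.00 to 0.10 for SAV1 and the JUN vector without induction, and -0.115 to 0.18 for LATS2 and the JUN vector with it.

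The replicate numbers matched the libraries only in part. Of 18 correlations between deviations of same-numbered libraries, 7 were over 0.1, with a range of -0.258 to 0.466. The highest were between JUN EtOH and JUN Dox, at 0.466 for replicate 3 and 0.283 for replicate 1. The lowest were between vector EtOH and vector Dox, at -0.258 for replicate 2 and -0.23 for replicate 1. Of the 12 libraries, 7 were on average closest to those of their own number. With the replicate number as a block, 6, 5, 6, 6, 10 and 0 of the 10 genes were called for induction in vector cells, induction in JUN cells, the JUN vector without and with induction, both against neither and the difference, and the STK4 difference was -0.008. Over all genes the block gave 4588, 3256, 5871, 5329, 5738 and 197 calls in that order, against 4443, 3168, 5766, 5267, 5638 and 165 in the main fit. Depth was at least 444 counts for each of the 10 genes in each library.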
